A study of Mus musculus with 12 samples.

Results

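The genes described here are 41 genes of the type I interferon response, chosen by symbol from a list of 43 named interferon-stimulated genes and found among 15720 gene identifiers in the deposited expression table. Mx1 and Mx2, the other two on the list, were not analysed here. The 41 genes were measured by RNA sequencing in EMS404, a line of SV40-immortalised hepatic stellate cells from C57Bl6 mice that also expresses human TLR4, the receptor for bacterial lipopolysaccharide. Stellate cells are pericytes of the liver sinusoid that turn into matrix-producing myofibroblasts under TGFb, and the study asked how the core clock factor Bmal1 acts on that response. The 4 groups, each with 3 libraries, were cells given an siRNA against Bmal1 and then TGFb (siBmal TGFb), cells given a scrambled siRNA and TGFb (siNt TGFb), cells given Bmal1 siRNA and vehicle (siBmal vehicle) and cells given scrambled siRNA and vehicle (siNt vehicle). TGFb was used at 10 ng/mL for 24 h, beginning 48 h after transfection. All 4 groups thus shared transfection with an siRNA, the SV40 immortalisation and the human TLR4, and no untransfected cells were analysed here. The triplicates are called biological in the series text, but no label says that they were separate cultures, so p-values measure the spread between these libraries, which may be partly technical.

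Type I interferons signal through the receptor chains IFNAR1 and IFNAR2 and the kinases JAK1 and TYK2 to phosphorylate transcription factors of the STAT family. With IRF9 these form the complex ISGF3, which binds the interferon-stimulated response element (ISRE) in promoters of genes whose products sense viral nucleic acid, block viral entry and translation, or feed back on the pathway. Many of these genes encode parts of the pathway itself, such as Stat2, Irf9 and Irf7, so that a first signal can raise the capacity for the next. In the liver, stellate cells are among the cell types that respond to interferon.

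Promoter sequence is a feature that played no part in choosing the genes. Windows of 300 bases around annotated starts, from 250 bases before to 50 after, were taken from RefSeq (GRCm38.p6) and held 33 of the 41 genes. The ISRE core, GAAA followed by any 2 bases and a further GAAA, was searched on both strands. It was present in 18 of these 33 genes (54.5%), against 3.99% of all 27025 genes with a window. The interferon-gamma-activated site TTCNNNGAA, whose letters read alike on both strands, was present in 7 of the 33 (21.2%), against 9.55% of all genes. In Bst2 and Ifitm3 a match of each kind overlapped. Usp18, Oas2, Rtp4, Dhx58, Ifi27, Parp14, Parp9 and Zbp1 had no window in the table. The stretches below carry the ISRE core in genes with large changes in these data and in Ifit3b, a near copy of Ifit3 with a smaller change. Matching letters are in capitals, and every sequence is read 5′ to 3′ on the gene's own strand.
Isg15: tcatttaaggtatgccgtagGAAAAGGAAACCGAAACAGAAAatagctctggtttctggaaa
Oas1a: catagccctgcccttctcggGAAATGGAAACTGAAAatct
Apol9a: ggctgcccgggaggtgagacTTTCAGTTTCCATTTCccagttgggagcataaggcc
Apol9b: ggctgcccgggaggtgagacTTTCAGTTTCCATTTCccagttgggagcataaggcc
Ifit1: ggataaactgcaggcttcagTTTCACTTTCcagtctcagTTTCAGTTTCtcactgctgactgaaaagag
Ifit3: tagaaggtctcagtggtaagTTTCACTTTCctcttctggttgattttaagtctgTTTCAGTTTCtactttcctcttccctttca
Ifit3b: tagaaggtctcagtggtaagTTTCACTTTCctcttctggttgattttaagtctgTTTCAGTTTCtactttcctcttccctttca
Bst2: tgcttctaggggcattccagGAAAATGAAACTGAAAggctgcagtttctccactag
The Isg15 stretch lies at chr4:156200855-156200916 on the minus strand and holds 3 overlapping matches. The Oas1a stretch at chr5:120907526-120907565 on the minus strand and the Bst2 stretch at chr8:71537567-71537622 on the minus strand hold 2 overlapping matches each. Apol9a at chr15:77411104-77411159 on the minus strand and Apol9b at chr15:77729015-77729070 on the plus strand carry the same 56 bases, with 2 overlapping matches on the opposite strand. Ifit1 lies at chr19:34640765-34640833 on the plus strand. Ifit3 at chr19:34583353-34583436 on the plus strand and Ifit3b at chr19:34607749-34607832 on the plus strand were identical over 84 bases.

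The median response to TGFb was not larger in genes with an ISRE match. The next 3 stretches, each with 1 match, belong to a gene that rose modestly and to a pair whose change was near 0, Irf1 being shown with its TTCNNNGAA match.
Stat2: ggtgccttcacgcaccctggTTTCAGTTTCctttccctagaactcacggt
Oas3: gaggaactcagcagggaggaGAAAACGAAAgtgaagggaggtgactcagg
Irf1: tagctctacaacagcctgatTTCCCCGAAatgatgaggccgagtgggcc
They lie at chr10:128270256-128270305 on the plus strand, at chr5:120777705-120777754 on the minus strand and at chr11:53769904-53769952 on the plus strand. Among genes with an ISRE match the median log2 change with TGFb under scrambled siRNA was 0.78, and 15 of 18 were called higher. Among the 15 with a window and no match the median was 0.85, and 12 were called higher. A match of letters is a description and not a binding site.

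The libraries were alike in overall size, with FPKM totals of 445472.1 to 483956.9 and 13673 to 13975 identifiers above 0. FPKM are fragments per kilobase of transcript, scaled to the size of the library. The sources used here do not give read numbers, so counting error could not be set beside any value. The target of the siRNA, Arntl (the gene for Bmal1), had 5.05, 4.01 and 4.0 FPKM in siBmal TGFb, against 10.5, 10.8 and 10.9 FPKM in siNt TGFb. It had 3.90, 3.87 and 3.59 FPKM in siBmal vehicle, against 5.43, 5.19 and 4.91 FPKM in siNt vehicle. Both pairs were apart, with log2 differences of −1.13 (adjusted p = 1.38e-06) and −0.37 (adjusted p = 0.049). The mesenchymal markers Col1a1, Col1a2 and Vim were at 740 FPKM or more in every library, and the contractile gene Acta2 reached 241 FPKM. Des, a stellate intermediate filament gene, was at 0.52 to 1.23 FPKM and Lum and Ngfr were at 0.23 FPKM or less, while Lrat and Reln were not analysed here.

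Leukocytes express many of the 41 genes at a high level, so their markers were set beside them. Of 10 leukocyte markers 6 were in the table. Itgam, Laptm5 and Lyz2 were at 0.15 FPKM or less in every library, and Csf1r was at 0.29 to 0.59 FPKM. Fcer1g, a signalling chain of Fc receptors, moved with the interferon genes and had 0.63, 0.31 and 0.63 FPKM in siBmal TGFb, 1.52, 1.44 and 1.46 FPKM in siNt TGFb, 0.19, 0.63 and 0.13 FPKM in siBmal vehicle, and 0.69, 0.13 and 0.26 FPKM in siNt vehicle. Every siNt TGFb library of Fcer1g was above every other library, without the unevenness among replicates seen below for the 41 genes. It rose with TGFb under scrambled siRNA, at 0.88 (SE 0.158, adjusted p = 0.000517), and was lower with Bmal1 siRNA under TGFb, at −0.71 (SE 0.158, adjusted p = 0.0069). Fcer1g passed the filter on mean level only through siNt TGFb, the group in both comparisons, so these p-values are not free of that selection. Its means were 0.523 FPKM in siBmal TGFb, 0.317 FPKM in siBmal vehicle and 0.36 FPKM in siNt vehicle. Cd68, a macrophage lysosomal gene at 2.63 to 4.71 FPKM, fell with TGFb under scrambled siRNA, at −0.45 (SE 0.0839, adjusted p = 0.000739). The summed level of the 6 was 3.42 to 4.39 FPKM in siBmal TGFb, 4.80 to 5.06 FPKM in siNt TGFb, 3.81 to 4.29 FPKM in siBmal vehicle and 4.44 to 5.55 FPKM in siNt vehicle. The sum, most of it Cd68, overlapped between siNt TGFb and siNt vehicle while Fcer1g and Cd68 moved in opposite directions. It was lower in every siBmal TGFb library than in every siNt TGFb library. The part of these markers in the differences of the 41 genes was not tested. In bulk RNA fewer cells of a type and less RNA per cell cannot be told apart.

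Before any group is compared, the libraries within groups need description, because the interferon genes were uneven among them. In siNt TGFb the second library had the highest value, the third the next and the first the lowest for all 41 genes, an order that 22.8% of all 11208 tested genes had. In siBmal vehicle the second library was again the highest for all 41 genes, against 32.5% of all tested genes. The second library was highest for 22 of the 41 in siBmal TGFb, against 43.2% of all tested genes. In siNt vehicle it was highest for 8 of the 41, against 31.4%. Summed over the 41 genes, the level was 486, 580 and 531 FPKM in siBmal TGFb, 615, 1744 and 907 FPKM in siNt TGFb, 593, 742 and 618 FPKM in siBmal vehicle, and 612, 532 and 601 FPKM in siNt vehicle. The 3 siNt TGFb libraries thus differed from each other by more than the other 3 groups differed among themselves, and the first of them lay close to siNt vehicle by this sum, in which Ifitm3 and Lgals3bp weigh most.

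**Figure D1:**
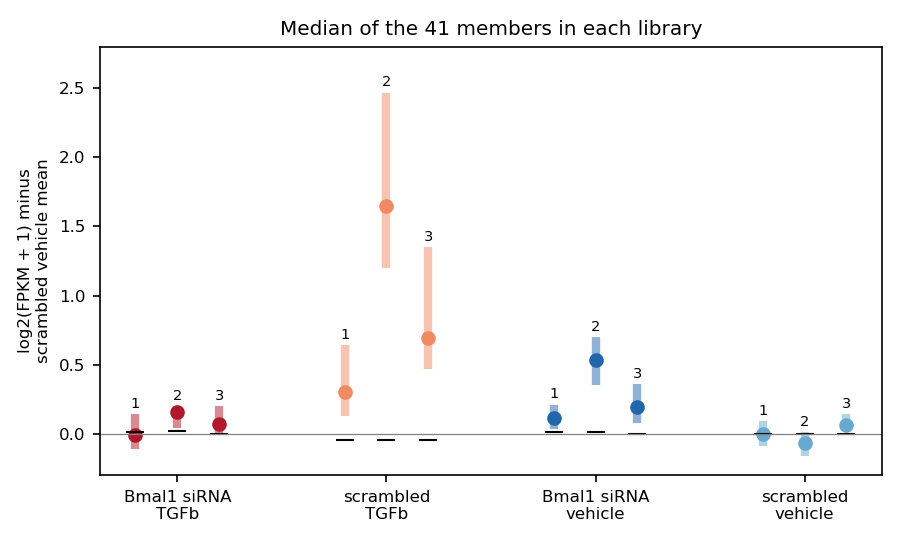
Median (dot) and quartiles (bar) of the 41 genes in each library, as log2(FPKM + 1) minus the mean of the siNt vehicle libraries, with the replicate number above each bar and the median of all tested genes as a black dash. The siNt TGFb libraries stood at 0.30, 1.65 and 0.69, the second siBmal vehicle library at 0.53, and the other libraries between −0.07 and 0.19.

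Measured gene by gene on the log2(FPKM + 1) scale, the median difference from the mean of siNt vehicle was −0.01, 0.16 and 0.07 in siBmal TGFb, 0.30, 1.65 and 0.69 in siNt TGFb, 0.11, 0.53 and 0.19 in siBmal vehicle, and 0, −0.07 and 0.06 in siNt vehicle. The median of all tested genes lay between −0.05 and 0.02 in every library. Of the 41 genes, 33, 41 and 39 were above the highest siNt vehicle library in the siNt TGFb libraries. In siBmal TGFb 12, 26 and 17 were above it, and in siBmal vehicle 21, 40 and 31. These counts were not made for all tested genes. By the median, all 3 siNt TGFb libraries were above the siNt vehicle libraries, at very different size. The first of them, at 0.30, was under the second siBmal vehicle library, at 0.53, which had no TGFb.

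The second siNt TGFb library exceeded the mean of its mates by a median of 1.16 on the log2 scale over the 41 genes (0.27 for Ifit2 to 2.16 for Usp18). Of the 50 genes with the largest such excess, 27 were among the 41 and 17 more belonged to the other interferon lists used below. The second siBmal vehicle library exceeded its mates by a median of 0.35, and 21 of its top 50 were among the 41. In siBmal TGFb and siNt vehicle the corresponding top 50 held 0 of the 41. Across the 41 genes the excess in siNt TGFb and that in siBmal vehicle had a Spearman rho of 0.67. The excess in siNt TGFb and the elevation of the first siNt TGFb library over siNt vehicle had a rho of 0.63, so that the genes highest in the second library tended to be the ones raised in the first. These points share libraries and expression level and are a description. Acta2, a TGFb target, did not follow the order, with 239, 239.7 and 241 FPKM in the 3 siNt TGFb libraries. Extraction with 1 of 2 RNA kits according to sample abundance is mentioned in the labels, but no source used here says which library had which, so its part in the unevenness was not tested. Results below are given with all 12 libraries and, at the end, without the high ones. Each gene had 1 estimate of spread shared by the 4 groups, although siNt TGFb was the most uneven. For Usp18 the SD was 8.19 FPKM in siNt TGFb and 0.217 to 0.255 FPKM in the other groups. The p-values may thus understate the spread in comparisons with siNt TGFb and overstate it in the others. Counts with only the groups compared are given in the last section, except for the TGFb response with scrambled siRNA. For that response 1759 of all 11170 genes were then called higher and 3102 lower.

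**Figure D2:**
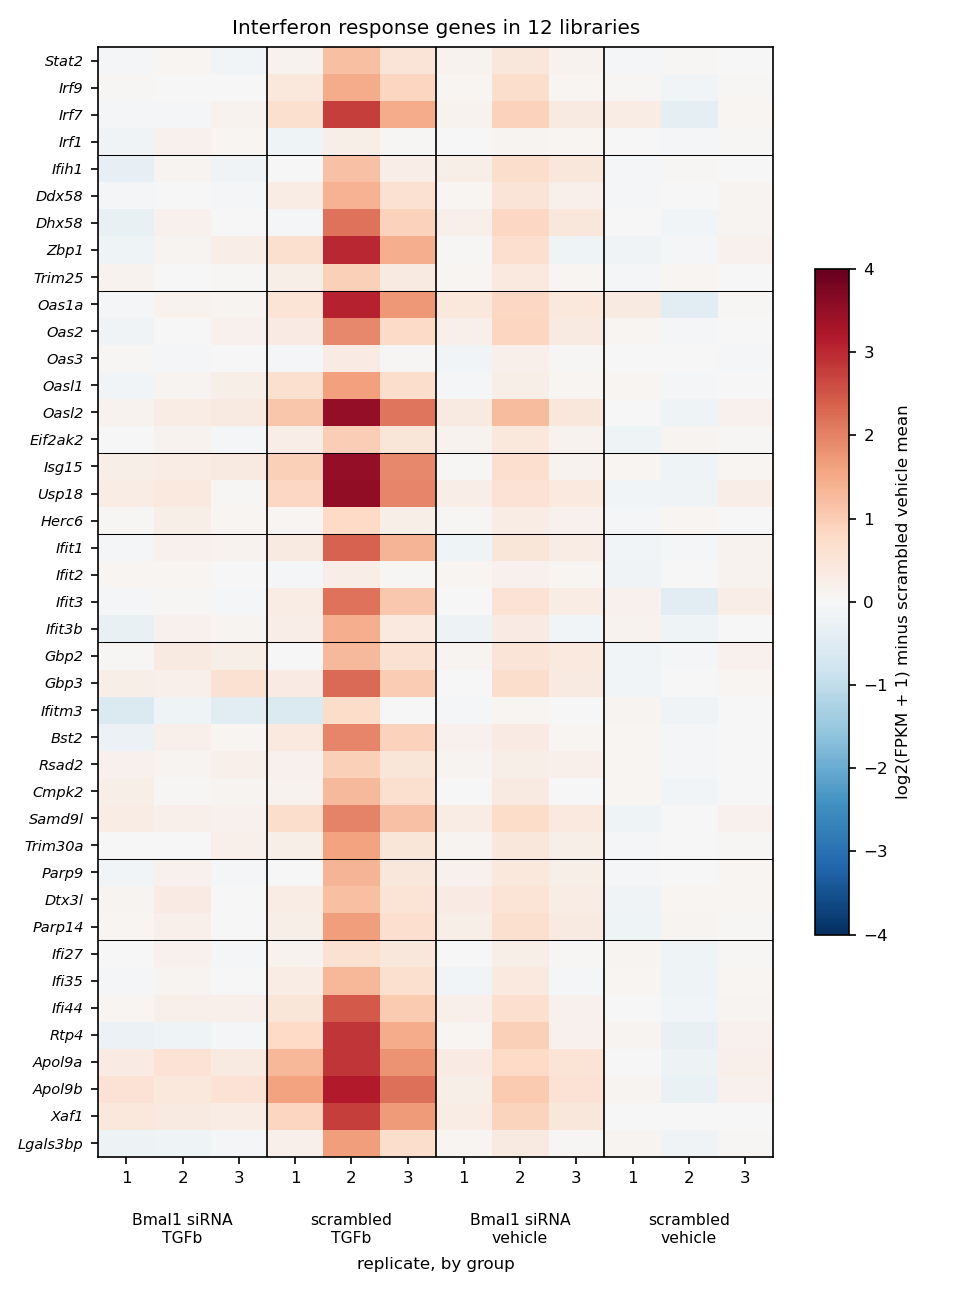
Each row is 1 of the 41 genes, ordered by role from transcription factors (top) to other inducible genes (bottom), and each column 1 library; color is log2(FPKM + 1) minus the siNt vehicle mean of that gene. The second siNt TGFb column is the highest of its group in every row, and Irf1, Oas3 and Ifit2 stay pale throughout.

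With scrambled siRNA, TGFb raised most of the interferon genes. Of the 41, 34 were called higher and 0 lower by limma at an adjusted p under 0.05, where 16.4% of all tested genes were called higher and 29.1% lower. Their median log2 change was 0.86, against −0.05 over all genes, and ranged from 0.04 to 2.33. In 33 of the 41 every siNt TGFb library was above every siNt vehicle library, as in 20.3% of all tested genes. Apol9b, Oasl2, Isg15, Usp18 and Apol9a changed most, each by a log2 of 2.01 or more. The 7 that did not pass were Irf1, Ifih1, Oas3, Herc6, Ifit2, Ifitm3 and Parp9. Oas3, Ifit3b, Rsad2, Cmpk2, Trim30a and Ifi44 entered the test only through their level in siNt TGFb, and without these 6 the count was 29 of 35.

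With Bmal1 siRNA no rise under the same treatment was called. Of the 41, 0 were called higher and 0 lower by limma, and 1 (Ifih1) had an unadjusted p under 0.05, where 8.9% of all tested genes were called higher and 10.1% lower. The median log2 change was −0.19, against 0 over all genes, and 39 of 41 estimates were below 0. Without the second siBmal vehicle library the median was −0.07. In 13 genes every siBmal TGFb library was below every siBmal vehicle library, as in 17.9% of all tested genes. The 95% intervals of the changes ran from −1.45 to 0.95 at their extremes. For all 41 genes a rise of 1 on the log2(FPKM + 1) scale thus lay outside the interval. For genes of low level such a rise is more than a doubling of FPKM. Smaller rises were not excluded except for Ifih1, and the median change with scrambled siRNA was itself 0.86.

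**Figure D3:**
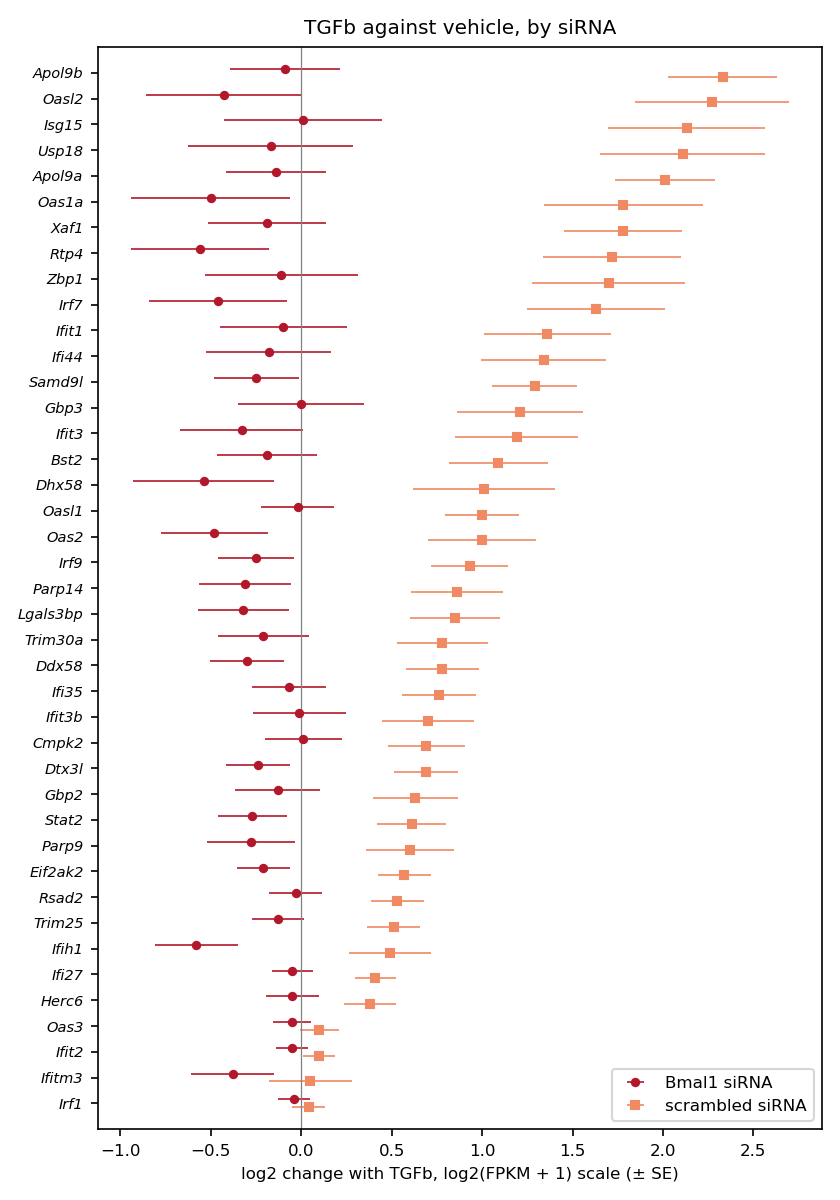
Log2 change with TGFb on the log2(FPKM + 1) scale, with SE, for each of the 41 genes with Bmal1 siRNA (dark circles) and with scrambled siRNA (light squares), ordered by the change with scrambled siRNA. Under Bmal1 siRNA estimates run from −0.58 to 0.01, and under scrambled siRNA from 0.04 for Irf1 to 2.33 for Apol9b.

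Under TGFb the 2 siRNAs differed. Of the 41 genes, 27 were called lower and 0 higher in siBmal TGFb than in siNt TGFb, where 7.16% of all tested genes were called lower and 16% higher. The median difference was −0.86, against 0.06 over all genes, and all 41 estimates were below 0. In 27 of the 41 the libraries of both groups did not overlap, as in 11% of all tested genes in that direction. Without the 6 genes that entered through siNt TGFb, 26 of 35 were called lower. When only these 2 groups were fitted, far fewer of the 41 were called, as given in the last section. The comparison uses the same 3 siNt TGFb libraries as the TGFb response above, so they are not independent.

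Under vehicle the siRNA moved the genes less. Of the 41, 0 were called higher and 0 lower by limma and 1 (Dtx3l) had an unadjusted p under 0.05, where 0.294% of all tested genes were called higher and 0.366% lower. The median difference was 0.27, against 0.01 over all genes, 40 of 41 estimates were above 0, and in 19 every siBmal vehicle library was above every siNt vehicle library, as in 16.7% of all tested genes. Without the second siBmal vehicle library, the highest for all 41 genes, the median was 0.15. The siBmal vehicle libraries also enter the TGFb response with Bmal1 siRNA, so the 2 results are not independent. The 95% intervals reached from −0.73 to 1.62 at their extremes, the upper one being that of Oasl2. The upper bound was under 1 on the log2(FPKM + 1) scale for 26 of the 41 genes, and for the rest a rise of 1 was not excluded.

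The test of the difference between the 2 TGFb responses, the interaction, called 21 of the 41 genes lower and 0 higher, where 5.52% of all tested genes were called lower and 8.86% higher. A negative interaction means a smaller TGFb change with Bmal1 siRNA than with scrambled siRNA. The median was −1.17, against 0.06 over all genes, and all 41 estimates were below 0. None of the 21 was among the 6 genes that entered through siNt TGFb.

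The genes follow by role, with values in FPKM per library and changes or differences on the log2(FPKM + 1) scale. The first are the factors that carry the signal into the nucleus. Stat2, a subunit of ISGF3, had 7.05, 7.76 and 6.84 FPKM in siBmal TGFb, 8.17, 18.2 and 10.9 FPKM in siNt TGFb, 8.17, 10.6 and 8.18 FPKM in siBmal vehicle, and 7.04, 7.59 and 7.52 FPKM in siNt vehicle. Irf9, its DNA-binding subunit, had 16.9, 16.4 and 16.6 FPKM in siBmal TGFb, 22.2, 47.5 and 30.4 FPKM in siNt TGFb, 17.1, 26.9 and 17.3 FPKM in siBmal vehicle, and 17, 14.9 and 17 FPKM in siNt vehicle. Irf7, the inducible factor that amplifies interferon transcription, had 5.84, 5.94 and 6.96 FPKM in siBmal TGFb, 10.3, 47.5 and 19.3 FPKM in siNt TGFb, 6.94, 12.6 and 8.17 FPKM in siBmal vehicle, and 7.79, 4.54 and 6.65 FPKM in siNt vehicle. In all 3 the siNt TGFb libraries lay above every siBmal TGFb library, and the first of them was the nearest to the other groups. With scrambled siRNA TGFb raised Stat2 by 0.61 (SE 0.192, adjusted p = 0.0196), Irf9 by 0.93 (SE 0.212, adjusted p = 0.00303) and Irf7 by 1.63 (SE 0.383, adjusted p = 0.00365). Under TGFb all 3 were called lower with Bmal1 siRNA, with log2 differences of −0.64, −0.90 and −1.62. Irf1, an early factor that many stimuli induce, had 19.3, 24 and 22.3 FPKM in siBmal TGFb, 19, 25.2 and 22.1 FPKM in siNt TGFb, 21.4, 22.9 and 22.8 FPKM in siBmal vehicle, and 21.5, 20.6 and 21.9 FPKM in siNt vehicle. All 4 groups of Irf1 overlapped, and no comparison called it, with a TGFb change of 0.04 (SE 0.0902, adjusted p = 0.741) under scrambled siRNA. Reads of Irf9, Irf7 and Irf1 cannot be told from those of an overlapping protein-coding gene over at most 135 exon bases, since no source used here states strand use.

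The cytosolic sensors of viral RNA and DNA differed in size of response. Zbp1, which binds nucleic acid in the Z form, had 0.67, 1.02 and 1.27 FPKM in siBmal TGFb, 1.94, 14.2 and 4.1 FPKM in siNt TGFb, 0.93, 1.97 and 0.68 FPKM in siBmal vehicle, and 0.72, 0.83 and 1.1 FPKM in siNt vehicle. Ddx58, which encodes RIG-I, had 9.99, 10.8 and 10.1 FPKM in siBmal TGFb, 13.3, 29.4 and 16.8 FPKM in siNt TGFb, 11.2, 15.7 and 12.2 FPKM in siBmal vehicle, and 9.85, 10.5 and 11.4 FPKM in siNt vehicle. Dhx58, which encodes LGP2, had 1.79, 2.9 and 2.43 FPKM in siBmal TGFb, 2.27, 14.6 and 5.45 FPKM in siNt TGFb, 2.96, 5.15 and 3.75 FPKM in siBmal vehicle, and 2.47, 2.19 and 2.67 FPKM in siNt vehicle. Zbp1 and Ddx58 were above siNt vehicle in all 3 siNt TGFb libraries, while Dhx58 in the first siNt TGFb library lay among the siNt vehicle values. Ifih1, which encodes the RNA sensor MDA5, had 2.77, 4.15 and 3.27 FPKM in siBmal TGFb, 3.74, 9.67 and 4.72 FPKM in siNt TGFb, 4.56, 6.65 and 5.47 FPKM in siBmal vehicle, and 3.56, 3.85 and 3.77 FPKM in siNt vehicle. Trim25, a ubiquitin ligase that works with RIG-I, had 8.39, 7.47 and 7.77 FPKM in siBmal TGFb, 8.99, 15.4 and 10 FPKM in siNt TGFb, 8.07, 10.1 and 7.99 FPKM in siBmal vehicle, and 7.06, 7.99 and 7.56 FPKM in siNt vehicle. TGFb with scrambled siRNA raised Zbp1 by 1.7 (SE 0.423, adjusted p = 0.00522), Ddx58 by 0.78 (SE 0.203, adjusted p = 0.00704) and Trim25 by 0.51 (SE 0.145, adjusted p = 0.0109). Dhx58 passed narrowly at 1.01 (SE 0.39, adjusted p = 0.0498), and Ifih1 did not at 0.49 (SE 0.228, adjusted p = 0.1). The difference between the siRNAs under TGFb was called for Zbp1 (−1.63), Ddx58 (−0.81) and Trim25 (−0.46). Ifih1 was one of the 2 sensors with a called interaction, at −1.06 (SE 0.322, adjusted p = 0.0438), beside Ddx58 at −1.08.

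Among the oligoadenylate synthetases, which make the signal that activates RNase L, the genes split. Oas1a had 1.84, 2.29 and 2.16 FPKM in siBmal TGFb, 3.31, 24.2 and 8.76 FPKM in siNt TGFb, 2.95, 4.28 and 2.97 FPKM in siBmal vehicle, and 2.82, 1.2 and 2.08 FPKM in siNt vehicle. Oas2 had 0.19, 0.31 and 0.49 FPKM in siBmal TGFb, 0.66, 3.97 and 1.24 FPKM in siNt TGFb, 0.53, 1.43 and 0.69 FPKM in siBmal vehicle, and 0.39, 0.26 and 0.33 FPKM in siNt vehicle. Oas3 had 0.52, 0.39 and 0.47 FPKM in siBmal TGFb, 0.38, 0.82 and 0.52 FPKM in siNt TGFb, 0.35, 0.67 and 0.52 FPKM in siBmal vehicle, and 0.49, 0.47 and 0.43 FPKM in siNt vehicle. Oas1a and Oas2 rose by 1.78 (SE 0.439, adjusted p = 0.00492) and 1.0 (SE 0.297, adjusted p = 0.0148), with Oas1a reaching 24.2 FPKM in the second siNt TGFb library. Oas3 stayed under 1 FPKM in every library, its groups overlapped, and its change was 0.10 (SE 0.106, adjusted p = 0.49). The 3 lie within 177.2 kb of chromosome 5. Of the 100-base stretches of Oas1a transcripts 40.9% also occur in another gene, mostly Oas1g, so reads of these genes may be split between them. Oasl2, a related interferon-induced protein, had 7.84, 8.92 and 9.23 FPKM in siBmal TGFb, 16.3, 91.4 and 34.4 FPKM in siNt TGFb, 9.28, 18.3 and 10 FPKM in siBmal vehicle, and 6.9, 6.13 and 8.06 FPKM in siNt vehicle. Oasl1, its neighbour in the genome and a regulator of Irf7 translation in mouse, had 1.81, 2.22 and 2.53 FPKM in siBmal TGFb, 3.7, 8.46 and 3.9 FPKM in siNt TGFb, 1.93, 2.55 and 2.18 FPKM in siBmal vehicle, and 2.16, 1.89 and 2.0 FPKM in siNt vehicle. Eif2ak2, which encodes the RNA-dependent kinase PKR, had 9.52, 10.8 and 9.11 FPKM in siBmal TGFb, 11.8, 19.7 and 13.7 FPKM in siNt TGFb, 10.7, 13.3 and 10.6 FPKM in siBmal vehicle, and 8.33, 10.5 and 10 FPKM in siNt vehicle. Oasl2 was the most changed of the 6 at 2.27 (SE 0.427, adjusted p = 0.000764), and all of the siNt TGFb libraries of these 3 genes lay above all siNt vehicle libraries. Oasl1 rose by 1.0 and Eif2ak2 by 0.57. Under TGFb, 5 of the 6 were lower with Bmal1 siRNA, led by Oasl2 at −1.99 (SE 0.427, adjusted p = 0.00539), and the same number had a called interaction.

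Isg15, a ubiquitin-like modifier, and Usp18, the protease that removes it and restrains the receptor, were among the most responsive. Isg15 had 9.3, 9.63 and 10.1 FPKM in siBmal TGFb, 15.8, 99.1 and 32.2 FPKM in siNt TGFb, 8.02, 12.8 and 8.62 FPKM in siBmal vehicle, and 8.28, 6.75 and 8.26 FPKM in siNt vehicle. Usp18 had 0.89, 1.05 and 0.61 FPKM in siBmal TGFb, 1.75, 17.3 and 5.06 FPKM in siNt TGFb, 0.88, 1.31 and 1.05 FPKM in siBmal vehicle, and 0.44, 0.40 and 0.86 FPKM in siNt vehicle. Herc6, the mouse ligase that attaches ISG15, had 1.52, 1.87 and 1.55 FPKM in siBmal TGFb, 1.58, 3.25 and 1.84 FPKM in siNt TGFb, 1.51, 1.97 and 1.74 FPKM in siBmal vehicle, and 1.31, 1.55 and 1.42 FPKM in siNt vehicle. Isg15 in the 3 siNt TGFb libraries was 2.03, 12.8 and 4.15 times the siNt vehicle mean, and Usp18 was 3.09, 30.5 and 8.93 times a mean of 0.567 FPKM. The change was 2.13 (SE 0.435, adjusted p = 0.00139) for Isg15 and 2.11 (SE 0.456, adjusted p = 0.00203) for Usp18, and the difference under TGFb was −1.84 (SE 0.435, adjusted p = 0.00922) and −1.87 (SE 0.456, adjusted p = 0.0107). Herc6 was not called in any comparison, with an adjusted p just over the threshold for TGFb at 0.38 (SE 0.146, adjusted p = 0.0508). The TGFb response of Isg15 with Bmal1 siRNA was 0.01, with a 95% interval of −0.93 to 0.95.

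**Figure D4:**
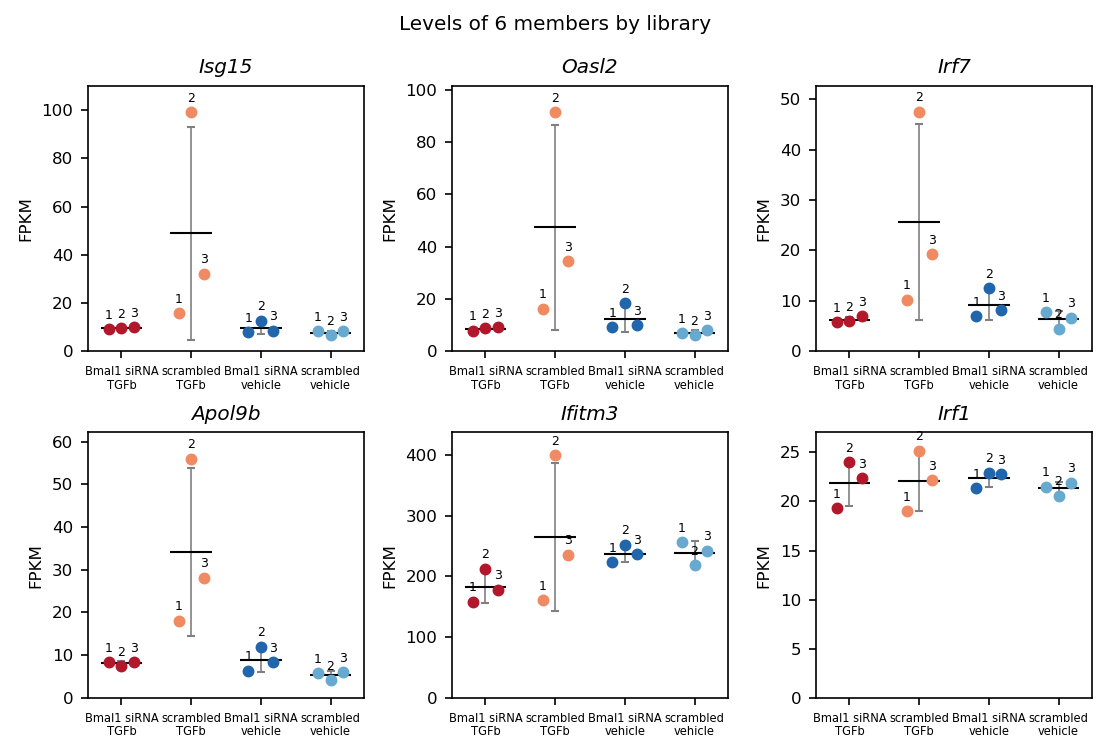
FPKM of 6 genes in each of the 12 libraries (points, numbered by replicate), with the mean as a line and the SD as a bar, 3 libraries a group. Isg15, Oasl2, Irf7 and Apol9b are spread widely in siNt TGFb and narrowly elsewhere, while Ifitm3 and Irf1 overlap between siNt TGFb and siNt vehicle.

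The Ifit genes, which bind foreign RNA, sit within 99.3 kb of chromosome 19 and did not move alike. Ifit1 had 3.18, 3.88 and 3.78 FPKM in siBmal TGFb, 4.48, 21.2 and 9.97 FPKM in siNt TGFb, 2.8, 5.03 and 4.27 FPKM in siBmal vehicle, and 3.0, 3.17 and 3.77 FPKM in siNt vehicle. Ifit2 had 5.59, 5.67 and 5.25 FPKM in siBmal TGFb, 5.05, 6.57 and 5.52 FPKM in siNt TGFb, 5.62, 6.06 and 5.59 FPKM in siBmal vehicle, and 4.63, 5.32 and 5.87 FPKM in siNt vehicle. Ifit3 had 1.09, 1.25 and 1.08 FPKM in siBmal TGFb, 1.7, 8.78 and 3.66 FPKM in siNt TGFb, 1.23, 2.3 and 1.66 FPKM in siBmal vehicle, and 1.46, 0.63 and 1.61 FPKM in siNt vehicle. Ifit1 and Ifit3 rose by 1.36 (SE 0.35, adjusted p = 0.00656) and 1.19 (SE 0.339, adjusted p = 0.0118), whereas Ifit2 overlapped in all groups with a change of 0.10 (SE 0.0884, adjusted p = 0.399). Ifit3b, a near copy of Ifit3, had 0.09, 0.52 and 0.44 FPKM in siBmal TGFb, 0.61, 2.64 and 0.76 FPKM in siNt TGFb, 0.15, 0.69 and 0.25 FPKM in siBmal vehicle, and 0.49, 0.18 and 0.36 FPKM in siNt vehicle. It was called at 0.70 (SE 0.255, adjusted p = 0.0386), but 27.4% of its 100-base stretches and 31.7% of those of Ifit3 occur in another gene, mostly in each other, so the split of reads between them is uncertain. Ifit1 and Ifit3 were called lower with Bmal1 siRNA under TGFb, at −1.26 and −1.22, and no Ifit gene had a called interaction.

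Of the 8 measured membrane, GTPase and other antiviral effectors, 7 rose with TGFb under scrambled siRNA, or 4 of 5 without Rsad2, Cmpk2 and Trim30a, which entered the test only through siNt TGFb. Ifitm3, which blocks viral entry at endosomes, was the most abundant of the 41 genes and had 159, 213 and 178 FPKM in siBmal TGFb, 161, 399 and 236 FPKM in siNt TGFb, 224, 252 and 236 FPKM in siBmal vehicle, and 256, 218 and 242 FPKM in siNt vehicle. It was the exception, with siNt TGFb values on both sides of siNt vehicle and a change of 0.05 (SE 0.229, adjusted p = 0.87). Bst2, which encodes tetherin, had 34.8, 47.4 and 43.4 FPKM in siBmal TGFb, 54, 165 and 79.8 FPKM in siNt TGFb, 46.3, 52.8 and 43.8 FPKM in siBmal vehicle, and 44, 39 and 41.3 FPKM in siNt vehicle. Samd9l, a restriction factor, had 3.78, 3.52 and 3.46 FPKM in siBmal TGFb, 5.41, 14.6 and 7.85 FPKM in siNt TGFb, 3.82, 5.55 and 4.14 FPKM in siBmal vehicle, and 2.47, 2.91 and 3.45 FPKM in siNt vehicle. Bst2 rose by 1.09 (SE 0.276, adjusted p = 0.00577) and Samd9l by 1.29 (SE 0.235, adjusted p = 0.000585), and both lay apart from siNt vehicle in every siNt TGFb library. Gbp2, a guanylate-binding GTPase, had 1.67, 2.36 and 2.04 FPKM in siBmal TGFb, 1.62, 5.35 and 2.94 FPKM in siNt TGFb, 1.82, 2.71 and 2.41 FPKM in siBmal vehicle, and 1.44, 1.46 and 1.96 FPKM in siNt vehicle. Gbp3, another of that family, had 1.1, 1.07 and 1.7 FPKM in siBmal TGFb, 1.24, 7.64 and 2.65 FPKM in siNt TGFb, 0.77, 1.9 and 1.29 FPKM in siBmal vehicle, and 0.67, 0.80 and 0.90 FPKM in siNt vehicle. The first siNt TGFb library of Gbp2 lay inside the siNt vehicle range, and Gbp2 passed at 0.63 (SE 0.234, adjusted p = 0.0427), against 1.21 (SE 0.349, adjusted p = 0.0124) for Gbp3. Rsad2, which encodes viperin, had 0.52, 0.44 and 0.54 FPKM in siBmal TGFb, 0.50, 1.59 and 0.87 FPKM in siNt TGFb, 0.46, 0.59 and 0.55 FPKM in siBmal vehicle, and 0.43, 0.28 and 0.32 FPKM in siNt vehicle. Cmpk2, a nucleotide kinase next to Rsad2, had 0.64, 0.43 and 0.51 FPKM in siBmal TGFb, 0.52, 2.43 and 1.17 FPKM in siNt TGFb, 0.40, 0.78 and 0.40 FPKM in siBmal vehicle, and 0.47, 0.30 and 0.41 FPKM in siNt vehicle. Trim30a, a TRIM family protein, had 0.23, 0.21 and 0.42 FPKM in siBmal TGFb, 0.46, 2.75 and 0.74 FPKM in siNt TGFb, 0.34, 0.70 and 0.44 FPKM in siBmal vehicle, and 0.20, 0.23 and 0.28 FPKM in siNt vehicle. These 3 were low, at 2.75 FPKM or less in every library, and rose by 0.53, 0.69 and 0.78. Under TGFb only Bst2 (−1.09) and Samd9l (−1.07) of the 8 were called lower with Bmal1 siRNA, and the same 2 had a called interaction.

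Parp9 and Dtx3l encode partners in a complex that couples ADP-ribosylation to ubiquitin transfer, and Parp14 is an ADP-ribosyltransferase of the same family. Parp9 had 6.08, 7.66 and 6.15 FPKM in siBmal TGFb, 6.47, 18.7 and 9.42 FPKM in siNt TGFb, 7.53, 9.17 and 8.04 FPKM in siBmal vehicle, and 6.28, 6.56 and 7.05 FPKM in siNt vehicle. Dtx3l had 3.48, 4.2 and 3.2 FPKM in siBmal TGFb, 4.15, 8.6 and 5.11 FPKM in siNt TGFb, 4.22, 5.08 and 4.13 FPKM in siBmal vehicle, and 2.74, 3.42 and 3.34 FPKM in siNt vehicle. Parp14 had 1.89, 2.1 and 1.75 FPKM in siBmal TGFb, 2.19, 7.59 and 3.37 FPKM in siNt TGFb, 2.18, 3.22 and 2.49 FPKM in siBmal vehicle, and 1.43, 1.92 and 1.83 FPKM in siNt vehicle. Dtx3l rose by 0.69 (SE 0.176, adjusted p = 0.00602) and Parp14 by 0.86 (SE 0.255, adjusted p = 0.0144), while Parp9, whose first siNt TGFb library lay inside the siNt vehicle range, did not pass at 0.60 (SE 0.243, adjusted p = 0.0603). Parp9 and Dtx3l share 458 exon bases, so some reads cannot be assigned to one or the other. Dtx3l and Parp14 were lower with Bmal1 siRNA under TGFb, at −0.54 and −0.76, but the call held in 3 of the 12 fits that each left out 1 library for Dtx3l and in 1 of 12 for Parp14. Without the second siNt TGFb library they were at −0.28 (adjusted p = 0.116) and −0.36 (adjusted p = 0.105).

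Of the other inducible genes, 8 of 8 were called higher with TGFb under scrambled siRNA and 8 of 8 lower with Bmal1 siRNA under TGFb. Without Ifi44, which entered the test only through siNt TGFb, both counts were 7 of 7. Apol9b, an apolipoprotein L gene, had 8.35, 7.48 and 8.4 FPKM in siBmal TGFb, 18, 56 and 28.1 FPKM in siNt TGFb, 6.34, 12 and 8.39 FPKM in siBmal vehicle, and 5.78, 4.21 and 6.07 FPKM in siNt vehicle. Apol9a, its close copy, had 10.7, 12.7 and 10.9 FPKM in siBmal TGFb, 22.3, 66.6 and 31.4 FPKM in siNt TGFb, 10.6, 15.1 and 12.5 FPKM in siBmal vehicle, and 8.25, 7.05 and 9.55 FPKM in siNt vehicle. Xaf1, a pro-apoptotic partner of XIAP, had 4.09, 3.87 and 3.58 FPKM in siBmal TGFb, 5.83, 24.7 and 11.2 FPKM in siNt TGFb, 3.65, 5.94 and 4.2 FPKM in siBmal vehicle, and 2.75, 2.83 and 2.7 FPKM in siNt vehicle. In these 3 even the first siNt TGFb library was above every siBmal TGFb and siNt vehicle library. Apol9b rose by 2.33 (SE 0.302, adjusted p = 3.62e-05), the largest change of the 41, and Apol9a by 2.01 (SE 0.276, adjusted p = 5.91e-05); 36.7% of the 100-base stretches of Apol9b also occur in another gene, mostly Apol9a, so the pair is uncertain gene by gene. Rtp4, a chaperone of membrane receptors, had 4.22, 4.4 and 4.83 FPKM in siBmal TGFb, 9.65, 43 and 16.1 FPKM in siNt TGFb, 5.44, 10.9 and 5.93 FPKM in siBmal vehicle, and 5.63, 3.94 and 5.9 FPKM in siNt vehicle. Ifi44, an interferon-induced cytosolic protein, had 0.30, 0.40 and 0.42 FPKM in siBmal TGFb, 0.73, 5.76 and 1.54 FPKM in siNt TGFb, 0.41, 0.95 and 0.38 FPKM in siBmal vehicle, and 0.21, 0.14 and 0.33 FPKM in siNt vehicle. Ifi35, an interferon-induced leucine zipper protein, had 16.7, 19.2 and 17.9 FPKM in siBmal TGFb, 21.9, 46.8 and 28.6 FPKM in siNt TGFb, 16.6, 23.4 and 17.2 FPKM in siBmal vehicle, and 19.1, 15.7 and 18.9 FPKM in siNt vehicle. Rtp4 rose by 1.72 (SE 0.381, adjusted p = 0.00251) and was the most reduced gene of this set under TGFb with Bmal1 siRNA, at −1.87 (SE 0.381, adjusted p = 0.00408). Ifi27, a small membrane protein, had 37.8, 42.7 and 36 FPKM in siBmal TGFb, 41.4, 58.2 and 52.5 FPKM in siNt TGFb, 37.9, 44.1 and 39.1 FPKM in siBmal vehicle, and 41.1, 33.3 and 39 FPKM in siNt vehicle. Lgals3bp, a secreted galectin-binding glycoprotein, had 75.3, 77.7 and 82.7 FPKM in siBmal TGFb, 101, 280.2 and 142 FPKM in siNt TGFb, 93.3, 112 and 90 FPKM in siBmal vehicle, and 94.8, 78.7 and 90.5 FPKM in siNt vehicle. Ifi27 changed least of the 8, at 0.41 (SE 0.113, adjusted p = 0.0102), and Lgals3bp rose by 0.85 (SE 0.251, adjusted p = 0.0139) and had the highest siNt vehicle level after Ifitm3.

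On the log2(FPKM + 1) scale level and change were not ordered together. By their mean in siNt vehicle 1 gene was at 100 FPKM or more, 7 were from 10 to 100, 23 from 1 to 10 and 10 under 1 FPKM. Across the 41 genes, Spearman's rho between that level and the TGFb change was −0.13, a description over points that share libraries and expression level. Fold changes on the log2(FPKM + 1) scale understate those of the lowest genes, so this rho does not describe folds of FPKM. In the second siNt TGFb library Ifi44, the lowest in siNt vehicle, was 25.4 times its siNt vehicle mean. Ifitm3, the highest, was 1.67 times its mean, and Oas3, also under 1 FPKM, was 1.77 times. Of the 41, all passed the filter of a mean of 0.5 FPKM, but Oas3, Ifit3b, Rsad2, Cmpk2, Trim30a and Ifi44 averaged less than 0.5 FPKM over the other 9 libraries and passed through siNt TGFb.

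The rest of the pathway was followed in lists of other genes. Of 17 ligand and receptor genes 8 were in the table. The ligand genes Ifne and Ifnz were at 0.43 FPKM or less, and Ifnb1 was not analysed here. The receptor gene Ifnar1 was at 23.3 to 27.9 FPKM and was not called in any comparison. Ifnar2 was at 64.2 to 83.7 FPKM and fell, with a log2 change of −0.26 (SE 0.0756, adjusted p = 0.0138), with TGFb under scrambled siRNA. Of 15 tested genes that sense nucleic acid or lipopolysaccharide and signal toward interferon, 0 rose and 5 fell with TGFb under scrambled siRNA, where 16.4% of all tested genes rose and 29.1% fell, so the share that fell was near that of all genes. The 5 included Tmem173, which encodes the DNA-sensing adaptor STING (−0.51), Tlr4 (−0.46) and the adaptor gene Ticam1 (−0.41).

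Of 13 tested JAK-STAT genes and inhibitors, 2 rose and 6 fell in the same comparison, against the same shares of all genes. Socs3, a feedback inhibitor of cytokine receptors, fell, with a log2 change of −0.91 (SE 0.0929, adjusted p = 4.8e-06) with TGFb. Under Bmal1 siRNA it fell less, and the interaction was 0.60. The log2 difference with TGFb was −0.54 for Irf2, a repressor of interferon genes, −0.44 for Stat3 and 0.11 for Irf2bp2.

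Of 54 other tested interferon-stimulated genes, 20 rose and 4 fell with TGFb under scrambled siRNA, with a median of 0.22, where 16.4% of all tested genes rose and 29.1% fell. With Bmal1 siRNA under TGFb 2 were higher and 16 lower, where 16% of all tested genes were higher and 7.16% lower. Slfn8, a Schlafen family gene, rose by 1.22 (SE 0.299, adjusted p = 0.00475) and the chemokine gene Cxcl10 by 1.13 (SE 0.213, adjusted p = 0.000786). Slfn8, Slfn2, Ifi205 and Phf11d entered the test only through their level in siNt TGFb, and the counts were not remade without them. The means of Slfn8 were 0.443 FPKM in siBmal TGFb, 2.48 in siNt TGFb, 0.54 in siBmal vehicle and 0.317 in siNt vehicle. The TGFb change was 0.21 for Rnf213, −0.42 for Oas1c and 1.13 for Oas1g. Ifitm1, of the same family as Ifitm3, fell, with a log2 change of −1.78 (SE 0.144, adjusted p = 6.25e-07) and 0.61, 1.4 and 0.61 FPKM in siBmal TGFb, 0.23, 0.53 and 0.59 FPKM in siNt TGFb, 2.22, 1.95 and 2.12 FPKM in siBmal vehicle, and 4.47, 3.7 and 3.74 FPKM in siNt vehicle. Every TGFb library of Ifitm1 was under every vehicle library. Of 10 tested interferon-gamma-inducible GTPases and class II regulators, 5 rose and 1 fell, led by Irgm1, which acts on vacuoles of intracellular pathogens, at 1.12 (SE 0.165, adjusted p = 0.000109), with Tgtp2 at 0.92 and Irgm2 at 0.85. Of these 10, Gbp6 and Nlrc5 also entered the test only through siNt TGFb. The order of the siNt TGFb libraries, with the second highest and the first lowest, held for 68 of the 98 tested genes of these lists. The lists were drawn up with earlier results of these data known and share the unevenness of the libraries.

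Leaving out the second siNt TGFb library reduced the size of the changes and turned the sign of none that had been called. Among uncalled genes, the TGFb change with scrambled siRNA turned negative for Irf1 (−0.05) and Ifitm3 (−0.29), and the siRNA difference under TGFb turned positive for Irf1 (0.08) and Ifit2 (0.05). Of the 38 genes that then passed the filter, 29 were called higher with TGFb under scrambled siRNA, with a median log2 change of 0.50 where it had been 0.86. Of all 11205 genes tested in this setting, 1646 were called higher and 2959 lower. Dhx58, Gbp2 and Cmpk2 were no longer called, and Oas3, Ifit3b and Trim30a fell under the filter. Isg15 still rose by 1.44 (adjusted p = 0.000353), Oasl2 by 1.63 (adjusted p = 0.000549) and Apol9b by 1.90 (adjusted p = 2.48e-05). Under TGFb 19 of 38 were lower with Bmal1 siRNA, with a median of −0.52, where 655 of all 11205 genes were called lower and 1354 higher. Stat2 was then at −0.35 (adjusted p = 0.0615), Trim25 at −0.24 (adjusted p = 0.101) and Oas2 at −0.54 (adjusted p = 0.0574). Eif2ak2 was at −0.35 (adjusted p = 0.0533), Ifit3 at −0.73 (adjusted p = 0.0503) and Ifi27 at −0.26 (adjusted p = 0.126). With Dtx3l and Parp14 these were the 8 genes no longer called, while Irf9 at −0.61 and Irf7 at −1.06 were. The interaction called 23 of 38 lower with a median of −0.77, where 528 of all 11205 genes were called lower and 794 higher.

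**Figure D5:**
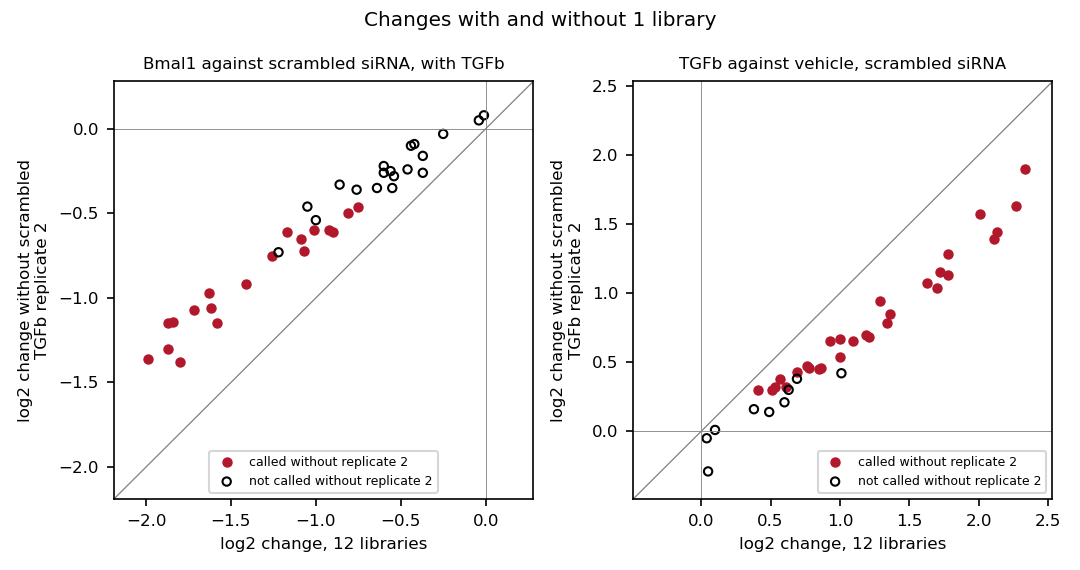
Log2 change of the 38 genes without the second siNt TGFb library (vertical) against that with all 12 libraries (horizontal), for Bmal1 against scrambled siRNA under TGFb (left) and TGFb against vehicle under scrambled siRNA (right), with the line of equality; red points are called without that library. Points on the left lie above the line and those on the right below it, and those of largest change are called in both panels.

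Leaving out also the second siBmal vehicle library, a choice made after the data were seen, left 36 genes. Of these 27 were called higher with TGFb under scrambled siRNA (median 0.50), 20 lower with Bmal1 siRNA under TGFb (median −0.52) and 15 lower in the interaction (median −0.66). Of all 11191 genes then tested, 1542 were called higher and 2776 lower with TGFb under scrambled siRNA. With Bmal1 siRNA under TGFb 1077 were higher and 570 lower. In the interaction 361 were higher and 344 lower, fewer than with all 12 libraries (993 and 619). In the fits that each left out 1 of the 12 libraries, 24 of the 34 TGFb calls and 17 of the 27 siRNA calls under TGFb held in every fit. The TGFb calls that did not were those of Dhx58, which held in 2 of 12 fits, Gbp2, which held in 4 of 12, Ifit3b, Trim30a, Cmpk2, Stat2, Ifit3, Parp14, Ifi27 and Lgals3bp. The siRNA calls that did not were those of the 8 genes above, Ifi44 and Ifit1. Of the 21 interaction calls 6 did, those of Oasl2, Samd9l, Rtp4, Apol9a, Apol9b and Xaf1. Without the first siNt TGFb library, which lies nearest to siNt vehicle, the interaction called 35, and without the second siBmal vehicle library it called 6. Over all tested genes the first of these fits called 628 lower and 779 higher, and the second 426 lower and 565 higher. The count of interaction calls thus depended on which library was left out, with single libraries moving it by over 1.5 times.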

How the data were processed

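Values were FPKM deposited by the authors, 1 column per library, per the file headers. The submitters' processing notes list DESeq2, RSEM, Bowtie2 2.2.5, HISAT2 2.0.4 and the mm10 build but give them no role; no source used here states annotation, strand use or depth. Groups came from the sample titles. Of 16290 lines, 555 had no identifier (1.304% to 1.464% of a library's FPKM) and 15 repeated one; both were left out. GENCODE M21 matched 15694 identifiers. Log2(FPKM + 1) was tested with limma 3.58.1 in R 4.3.3 over all 12 libraries, two-sided, its variance prior following mean level (5 prior and 8 residual degrees of freedom). The 11208 genes averaging 0.5 FPKM or more entered, and calls needed an adjusted p (Benjamini-Hochberg, all these genes) under 0.05. The script was tested on simulated data. FPKM is relative, so abundant genes shift others. Library values were given for every gene whose direction differed between comparisons, and the 3 called genes of largest change per list were named with Ifnar1 and Ifnar2; 1 result under this rule is not reported here. Genes, lists and this rule were chosen with earlier results of these data known. Alternatives were other pseudocounts, filters, scalings, a replicate block, array weights, only the groups compared and libraries left out.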

Additional observations from a re-analysis of the deposited data

Results flagged for a closer look

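The TGFb response differed between the siRNAs by a test of the interaction (limma, adjusted p under 0.05) for 21 of the 41 genes. All 21 were lower, where 5.52% of all tested genes were called lower and 8.86% higher. The log2 values, all smaller with Bmal1 siRNA, were −0.88 for Stat2, −1.18 for Irf9, −2.09 for Irf7, −1.06 for Ifih1, −1.08 for Ddx58, −2.28 for Oas1a, −1.47 for Oas2, −1.01 for Oasl1, −2.69 for Oasl2 and −0.78 for Eif2ak2. They were −2.12 for Isg15, −2.29 for Usp18, −1.28 for Bst2, −1.54 for Samd9l, −0.94 for Dtx3l, −1.17 for Parp14, −2.28 for Rtp4, −2.14 for Apol9a, −2.42 for Apol9b, −1.97 for Xaf1 and −1.17 for Lgals3bp. Of these 21 calls only 6 held in every fit that left out 1 library, those of Oasl2, Samd9l, Rtp4, Apol9a, Apol9b and Xaf1. Of the named genes of the other lists, the interaction was negative for Oas1g (−1.54), Rnf213 (−1.10), Cxcl10 (−1.31), Irgm1 (−1.02), Irgm2 (−1.36) and Tgtp2 (−1.15). It was positive for Tmem173 (0.29), Socs3 (0.60) and Ifitm1 (1.03), each of which fell with TGFb under both siRNAs and fell less with Bmal1 siRNA.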

How the results depend on the processing

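No change of any of the 41 genes that was called reversed under an alternative. The TGFb response with scrambled siRNA (34 genes called) and the siRNA difference under TGFb (27) kept their direction throughout, with 26 to 37 and 19 to 37 calls when single libraries were left out. Over all genes the same fits called 1561 to 1990 higher and 602 to 872 lower, respectively. With Bmal1 siRNA the TGFb response had 0 calls, against 1 lower with the replicate block, 6 with array weights (whose fit stopped before its tolerance), 4 when only the compared groups entered, 4 when both second TGFb libraries were left out, 1 with both high second libraries left out and 0 to 1 with single libraries left out. Over all genes that response called 1340 lower with the replicate block, 2819 with array weights and 930 with only the groups compared. It called 1737 lower without both second TGFb libraries and 684 without both high second libraries. Under vehicle the siRNA had 0 calls, against 3 higher with the compared groups alone and 3 with both second TGFb libraries left out. Over all genes 120 and 182 were called higher in these settings. Under TGFb the siRNA had 8 calls with only the groups compared, where 569 of all 11153 genes were called lower and 996 higher. A pseudocount of 5 moved the median to −0.47. The interaction (21 calls, median −1.17) had 13 calls and a median of −0.63 with a pseudocount of 5, 6 calls with no filter, 36 with array weights, a median of −0.66 with both high second libraries left out, and 6 to 35 calls with medians of −1.43 to −0.77 with single libraries left out: 9 without siBmal TGFb 3, 6 without siBmal vehicle 2, 11 without siBmal vehicle 3, 35 without siNt TGFb 1, 13 without siNt TGFb 3, and 9, 10 and 12 without siNt vehicle 1, 2 and 3. Over all genes the interaction called 608 lower with a pseudocount of 5, 584 with no filter and 1294 with array weights. With the single libraries just named left out it called 426 to 628 lower. Only the groups compared gave no interaction value. The causes were not tested. Whether the replicate numbers pair the libraries was not settled by the correlations between libraries of the same number, −0.15 to 0.47. Between the siRNAs under TGFb these were 0.47, 0.30 and −0.05. The replicate block gave 37, 33 and 29 calls for the TGFb response, the siRNA under TGFb and the interaction. Over all genes it called 1946 higher, 909 lower and 698 lower in these comparisons. Over all genes, median-of-ratios scaling changed the TGFb split from 1841 higher and 3264 lower to 2504 and 2521, and the siRNA split under TGFb from 1794 and 802 to 972 and 1195; the 41 genes gave 36 higher and 27 lower calls with it. Unknown depth limits the genes under 1 FPKM most.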
